A study of Sus scrofa with 18 samples.

Results

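The expression of 7 genes known from the choroid plexus, TTR, CLIC6, AQP1, KL, FOLR1, SLC4A5 and ENPP2, was examined in whole fetal pig brain. The genes were chosen by name, but with earlier results of these data known, so the choice was not blind to the data. All 7 of them were found among the 31908 genes of the count table. Of these, 6 were under their symbol, and AQP1 was under an Ensembl identifier that a table of gene names pairs with it. The data came from RNA sequencing of brains taken at GD45, GD60 and GD90 (GD, gestation day), with 3 male and 3 female fetuses on each day and 18 libraries in all. Dams were Landrace × Large White gilts bred by artificial insemination, and no group received a treatment. Each brain was homogenised whole, so a library mixes neurons, glia, vessels, meninges and choroid plexus in one RNA sample. The day and litter size in the labels fit 9 litters that each gave 1 male and 1 female, so littermates are not independent of each other.

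The choroid plexus is a vascular fold covered by a secretory epithelium that lies in the ventricles of the brain. Its epithelial cells make cerebrospinal fluid by moving ions and water, close the blood to fluid barrier with tight junctions, and secrete carrier proteins and growth factors into the fluid. The tissue forms early, under signals of the dorsal midline, and in the young fetus it fills a large part of the ventricles. In a whole brain homogenate, fewer choroid plexus cells and less RNA per cell cannot be told apart. Several of the 7 genes are also used by other cells of the brain. Levels are shares of a library's counts, so growth of the rest of the brain can lower them without a loss in the choroid plexus. A fall or a rise below refers to these shares. Brain weights, in the unit of the labels, were 0.6653 to 1.86 at GD45 and 17.58 to 20.489 at GD90. The part of brain growth in the levels was not tested.

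The 7 genes stand for different tasks of this epithelium. TTR (transthyretin) is the secreted carrier of thyroid hormone and, with retinol binding protein, of retinol; it lies on Sscrofa11.1 chromosome 6 at 115496193-115503977. ENPP2 (autotaxin) is a secreted enzyme that makes lysophosphatidic acid and lies on chromosome 4 at 19180234-19433492. AQP1 is a water channel (chromosome 18, 42063481-42076746), SLC4A5 a sodium bicarbonate cotransporter (chromosome 3, 68692694-68819292) and CLIC6 a member of the chloride intracellular channel family (chromosome 13, 198251119-198303852). KL (klotho) is a membrane protein that acts as a coreceptor for FGF23 (chromosome 11, 9427198-9478346), and FOLR1 is the folate receptor alpha, which carries folate across the epithelium (chromosome 9, 6746007-6760433).

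2 sets of sequence bear on the measurements. The first is the start of TTR, the most abundant of the genes, shown because it was the only one of the 8 member windows with a TATA motif on the strand of the gene. The window runs from 250 bases before to 50 bases after the RefSeq start, chr6:115496088-115496387 of Sscrofa11.1 on the plus strand, with 46% G and C, and the capitals mark the TATAAA motif from -41 to -36 relative to the start.
TTR start: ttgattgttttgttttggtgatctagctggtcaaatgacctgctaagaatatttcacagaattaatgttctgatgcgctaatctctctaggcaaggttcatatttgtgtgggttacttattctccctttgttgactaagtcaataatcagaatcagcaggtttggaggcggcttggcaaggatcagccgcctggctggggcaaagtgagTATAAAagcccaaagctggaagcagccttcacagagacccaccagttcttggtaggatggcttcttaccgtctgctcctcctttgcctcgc
The letters TATAAA were searched on both strands. They were present in 3 of 8 member windows (FOLR1 has 2 RefSeq genes) and in 10.9% of 19559 windows of the same length; in SLC4A5 and ENPP2 the match lay on the opposite strand, at -188 to -183 and -133 to -128. Matches to TAATCC, the letters bound by OTX type homeobox factors, were in 0 of 8 member windows and in 6.1% of all windows, and matches to the forkhead letters TGTTTAC were in 0 of 8 and in 2.65%. A match or its absence describes these letters in these windows only, and the windows begin at RefSeq starts, which for SLC4A5 and ENPP2 lie inside the gene model that was counted.

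The second set shows why FOLR1 needs care. The FOLR1 model that was counted spans 2 RefSeq genes that both carry the name FOLR1, an upstream one at 6746014-6750431 and a downstream one at 6753513-6760433 of chromosome 9. Each has an exon of 189 bases, chr9:6749348-6749536 and chr9:6758548-6758736, both on the plus strand. They were identical at 179 of 189 bases (94.7%), with a longest identical run of 80 bases, and the capitals mark the 10 differing bases.
Upstream exon: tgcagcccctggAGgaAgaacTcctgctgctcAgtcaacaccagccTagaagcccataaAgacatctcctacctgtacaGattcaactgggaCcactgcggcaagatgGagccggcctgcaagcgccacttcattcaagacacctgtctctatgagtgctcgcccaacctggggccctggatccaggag
Downstream exon: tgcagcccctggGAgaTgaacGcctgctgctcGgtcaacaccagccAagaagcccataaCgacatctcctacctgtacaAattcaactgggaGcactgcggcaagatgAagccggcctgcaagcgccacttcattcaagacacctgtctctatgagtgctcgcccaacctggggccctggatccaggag
Reads that fall within identical stretches could be assigned to either copy or to none, so values of the separate copies are uncertain.

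The libraries held between 15118843 and 19729783 counts assigned to genes. All 7 genes passed the filter on low counts, as did 16325 genes in all. Counts over the 18 libraries were 264255 for TTR, 16243 for ENPP2, 10253 for FOLR1, 5255 for CLIC6, 1852 for AQP1, 854 for SLC4A5 and 787 for KL, and KL was as low as 4 counts in a single library. Male GD45 replicate 17 stood apart from the other libraries in how its values depended on gene length, with a slope of -0.19 (log2 units for each doubling of length, relative to the mean of all libraries) where the next lowest library had -0.07. Values that change with it are given with and without it where they are described. Between genes, levels were compared per kilobase of gene length. The mean level over the 18 libraries was 407 CPM per kb for TTR, 11.7 for FOLR1, 7.29 for ENPP2, 3.62 for CLIC6, 1.96 for AQP1, 0.840 for KL and 0.436 for SLC4A5. TTR was thus far above the other 6 genes in whole brain, and KL and SLC4A5 were the lowest.

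TTR and CLIC6 were highest at GD45 and lowest at GD90. Mean TTR was 1180 ± 208 CPM at GD45, 875 ± 180 CPM at GD60 and 565 ± 170 CPM at GD90 (SD, n = 6 libraries a day). At GD45 the females had 1167, 876 and 1360 CPM (replicates 12, 13 and 18) and the males 1250, 1008 and 1419 CPM (replicates 11, 14 and 17). At GD60 the females had 796, 751 and 1095 CPM (replicates 3, 5 and 15) and the males 629, 1039 and 940 CPM (replicates 4, 6 and 16). These overlap the GD45 values. At GD90 the females had 861, 542 and 455 CPM (replicates 2, 7 and 9) and the males 638, 530 and 369 CPM (replicates 1, 8 and 10). All 6 libraries of GD90 were below all 6 of GD45, with female GD90 replicate 2 closest to them, and the ratio of the means was 2.09. Here and below, the share of all genes whose days separate in this way is not given. A separation is therefore not a trait particular to a member. Between these 2 days, edgeR called 38.8% of all genes tested in females and 47.8% in males.

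Comparisons between days were tested within each sex by the quasi-likelihood test of edgeR, and p-values were adjusted over all genes tested. TTR fell from GD45 to GD90 in males (log2 fold change -1.33, adjusted p = 0.00159) and in females (-0.76, adjusted p = 0.0499). From GD60 to GD90 it fell in males (-0.79, adjusted p = 0.0459), and the value in females was -0.43 (adjusted p = 0.299). The calls for GD45 to GD90 in females and for GD60 to GD90 in males were near the threshold and depended on single libraries. The first was lost without any 1 of 11 libraries (female GD45 replicates 12 and 18, male GD45 replicate 11, female GD60 replicates 3 and 5, male GD60 replicates 6 and 16, female GD90 replicates 7 and 9, male GD90 replicates 1 and 8), with adjusted p up to 0.192. The second was lost without any 1 of 10 (female GD45 replicates 12 and 18, male GD45 replicate 11, female GD60 replicates 3 and 5, male GD60 replicates 6 and 16, female GD90 replicate 7, male GD90 replicates 8 and 10), with adjusted p up to 0.179. With the 2 littermates summed, so that each litter counts once, TTR fell by 1.03 from GD45 to GD90 (adjusted p = 0.00363). From GD60 to GD90 the value on litter sums was -0.62 (adjusted p = 0.0595), which did not pass.

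CLIC6, the chloride channel family member, had the largest ratio between days of the 7 genes. Mean CLIC6 was 26.9 ± 7.78 CPM at GD45, 15.1 ± 2.54 CPM at GD60 and 10.6 ± 1.22 CPM at GD90 (SD, n = 6). At GD45 the females had 23.5, 16.0 and 36.9 CPM and the males 32.05, 31.3 and 21.7 CPM, in the order of replicates used for TTR. At GD60 they had 18.6, 16.6 and 11.9 CPM in females and 16.0, 14.9 and 12.6 CPM in males, so that only female GD45 replicate 13 was within the GD60 range. At GD90 the females had 9.30, 11.14 and 9.26 CPM and the males 12.5, 10.5 and 10.8 CPM. Every GD90 library was below every GD45 library, and the ratio of the means was 2.54.

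The log2 fold change of CLIC6 from GD45 to GD90 was -1.25 in females (edgeR, adjusted p = 0.000277) and -1.36 in males (adjusted p = 0.000110), and both remained called when any single library was left out. From GD45 to GD60 it fell by 0.98 in males (adjusted p = 0.0128). That call was lost without male GD60 replicate 16 (-0.92, adjusted p = 0.0630). In females the value was -0.68 (adjusted p = 0.0683), which passed without female GD45 replicate 13 (-0.92) or male GD45 replicate 17 (-0.69). From GD60 to GD90 the value was -0.57 in females (adjusted p = 0.0686) and -0.38 in males (adjusted p = 0.195), and neither passed. The value in females passed without female GD45 replicate 13, female GD45 replicate 18 or female GD60 replicate 15. With littermates summed, CLIC6 fell in each interval, with -0.84 from GD45 to GD60 (adjusted p = 0.00365) and -0.48 from GD60 to GD90 (adjusted p = 0.0204).

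ENPP2 had a different course, with its highest levels at GD90. Mean ENPP2 was 52.6 ± 15.7 CPM at GD45, 42.6 ± 7.92 CPM at GD60 and 67.8 ± 5.44 CPM at GD90 (SD, n = 6). The GD45 values were 51.2, 39.8 and 62.9 CPM in females and 63.5, 69.3 and 28.9 CPM in males, the last being male GD45 replicate 17. The GD60 values were 51.7, 45.4 and 49.9 CPM in females and 41.2, 35.1 and 32.04 CPM in males. All 3 males were below all 3 females, but this difference between the sexes was not called (log2 fold change -0.40, edgeR adjusted p = 0.779). At GD90 the values were 71.6, 68.6 and 59.1 CPM in females and 75.0, 65.8 and 66.8 CPM in males. The 6 libraries of GD90 were all above the 6 of GD60, and 3 of the 6 GD45 libraries lay within the GD90 range.

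From GD45 to GD60 ENPP2 had a value of -0.57 in males (adjusted p = 0.117 in edgeR), and without male GD45 replicate 17 it was called lower at GD60 (-0.83, adjusted p = 0.00305); in females it was -0.04. ENPP2 rose from GD60 to GD90 by 0.92 on the log2 scale in males (SE 0.20, adjusted p = 0.00233 in edgeR), a call that held without any single library. In females the value was 0.52 (adjusted p = 0.0611), and it passed without male GD45 replicate 14 or male GD45 replicate 17. From GD45 to GD90 the value was 0.48 in females (adjusted p = 0.0643), which passed without female GD45 replicate 18, male GD45 replicate 14 or male GD45 replicate 17. In males it was 0.35 (adjusted p = 0.154), 0.53 and called without male GD45 replicate 14, and 0.10 without male GD45 replicate 17. With littermates summed the rise was 0.69 from GD60 (adjusted p = 0.000518) and 0.40 from GD45 (adjusted p = 0.00759). Oligodendrocytes are a known further source of autotaxin in the brain. Their markers moved at the same time: the summed level of 6 markers (MAG, MOG, MBP, OPALIN, ERMN and CNP) was 49.2 to 71.1 CPM at GD45, 68.1 to 92.0 CPM at GD60 and 1154 to 2060.5 CPM at GD90, and 6 of 6 were called higher at GD90 than at GD45 in both sexes. Within days the sum of these markers had r = 0.26 with ENPP2, over 18 libraries. The part of oligodendrocytes in the rise of ENPP2 was not tested.

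KL was the one member whose mean was higher at each later day, and its libraries overlapped widely. Mean KL was 1.85 ± 1.22 CPM at GD45, 2.52 ± 1.42 CPM at GD60 and 3.68 ± 1.55 CPM at GD90 (SD, n = 6). At GD45 the females had 1.46, 1.76 and 1.48 CPM and the males 2.14, 3.98 and 0.264 CPM. At GD60 the values were 4.53, 3.63 and 1.52 CPM in females and 2.95, 0.831 and 1.63 CPM in males, and at GD90 they were 1.53, 3.74 and 2.33 CPM in females and 4.62, 4.06 and 5.82 CPM in males. The days overlapped throughout. No comparison within a sex passed the threshold in edgeR: from GD45 to GD90 the value was 1.19 in males (adjusted p = 0.0915) and 0.79 in females (adjusted p = 0.308), and from GD60 to GD90 in males it was 1.41 (adjusted p = 0.0656). The last passed without male GD45 replicate 14, male GD45 replicate 17 or male GD60 replicate 4, and the first without male GD45 replicate 14 (1.94). Without male GD45 replicate 17 the first was 0.70 (adjusted p = 0.249). With littermates summed, KL was higher at GD90 than at GD45 by 1.03 (adjusted p = 0.0376). The length slope of the libraries, described above, differed between the same days, with means of -0.04 at GD45, 0.00 at GD60 and 0.04 at GD90 and overlapping libraries. Its part in the day difference of KL was not tested; after a correction for gene length in every library, KL had 1.20 from GD45 to GD90 in males (adjusted p = 0.0932).

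FOLR1 was nearly level in sum. Mean FOLR1 was 40.3 ± 13.2 CPM at GD45, 31.1 ± 4.94 CPM at GD60 and 31.3 ± 7.23 CPM at GD90 (SD, n = 6). The GD45 values were 33.9, 29.6 and 42.6 CPM in females and 36.4, 33.3 and 65.7 CPM in males, with male GD45 replicate 17 far above the others. At GD60 they were 25.0, 27.9 and 36.3 CPM in females and 28.1, 32.3 and 37.1 CPM in males, and at GD90 45.2, 29.7 and 31.8 CPM in females and 29.2, 27.6 and 24.3 CPM in males. FOLR1 was called lower at GD90 than at GD45 in males (-0.83, SE 0.29, edgeR adjusted p = 0.0246). Without male GD45 replicate 17 the value was -0.33 (adjusted p = 0.230), the call was also lost without male GD90 replicate 8 or male GD90 replicate 10, and with littermates summed it was -0.33 (adjusted p = 0.232).

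AQP1 and SLC4A5, the water channel and the bicarbonate cotransporter, had no called change between days. AQP1 ranged from 3.53 to 11.3 CPM at GD45, from 4.41 to 8.54 CPM at GD60 and from 4.19 to 7.05 CPM at GD90, with means of 7.25 ± 3.22, 6.48 ± 1.43 and 5.05 ± 1.04 CPM (SD, n = 6). The widest spread was at GD45, where males 14 and 17 had 10.1 and 11.3 CPM and females 12 and 13 had 4.27 and 3.53 CPM. From GD45 to GD90 in males the value was -0.79 (edgeR, adjusted p = 0.0533), which passed without female GD45 replicate 13, female GD45 replicate 18, male GD45 replicate 11 or male GD90 replicate 1. Without male GD45 replicate 17 it was -0.48 (adjusted p = 0.250). SLC4A5 had means of 2.94 ± 0.870, 2.87 ± 0.842 and 2.70 ± 0.839 CPM (SD, n = 6), and its days overlapped entirely.

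**Figure D1:**
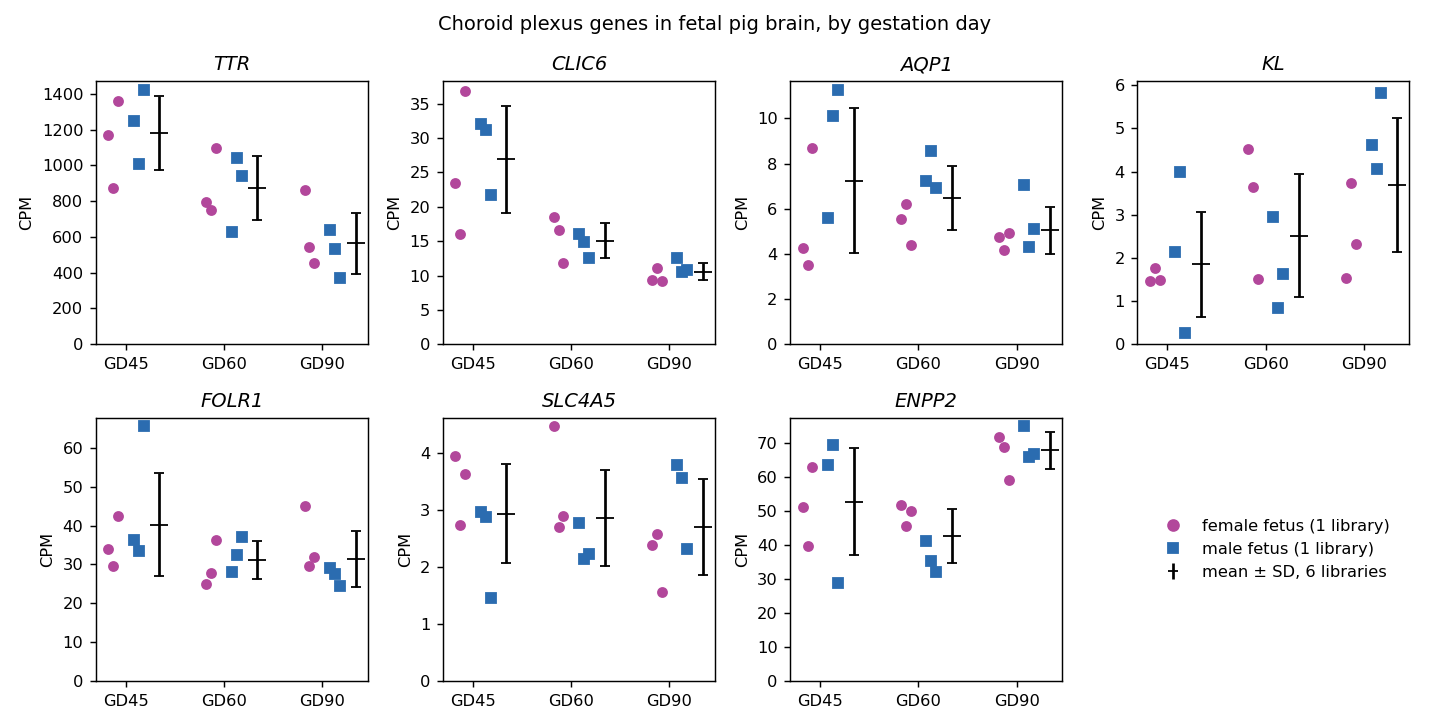
CPM of each of the 7 genes in each of the 18 libraries by gestation day, with females and males marked apart and the mean and SD of each day. The 6 GD90 libraries lie below the 6 GD45 libraries for TTR and CLIC6, the 6 GD90 libraries lie above the 6 GD60 libraries for ENPP2, and the days overlap for AQP1, KL, FOLR1 and SLC4A5. The share of all genes that separate in this way is not given.

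Set beside all genes, the number of members called was not large. From GD45 to GD60, 0 of 7 were called in females (7.22% of all genes tested) and 1 of 7 in males, CLIC6 (5.61% of all genes). For the 0 in females, 1 member had an unadjusted p under 0.05 and DESeq2 called 1. From GD60 to GD90, 0 of 7 were called in females (27.1% of all genes; 2 at an unadjusted p under 0.05, 1 in DESeq2) and 2 of 7 in males, TTR down and ENPP2 up (34.5%). From GD45 to GD90 the members called were 2 of 7 in females, TTR and CLIC6 (38.8% of all genes), and 3 of 7 in males, TTR, CLIC6 and FOLR1 (47.8%). All those calls were downward except that of ENPP2. With 7 genes the counts are close to what the share of all genes called would give. The median log2 fold change of the 7 genes from GD45 to GD90 was -0.13 in females and -0.79 in males, where the median of all genes was -0.01 in both. Without male GD45 replicate 17 the median in males was -0.33, and with litter sums it was -0.33 over both sexes. For the fit on litter sums the calls were 1 of 7 from GD45 to GD60 (11.6% of all genes), 2 of 7 from GD60 to GD90 (37.4%) and 4 of 7 from GD45 to GD90 (53.3%).

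**Figure D2:**
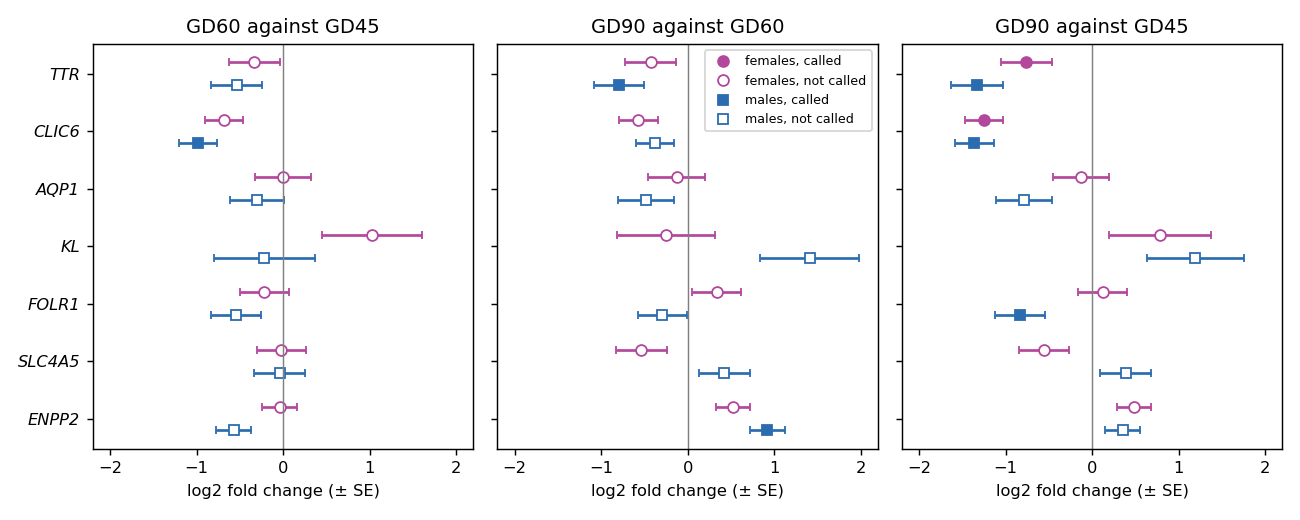
Log2 fold change with its standard error for each of the 7 genes in each comparison of days, females and males apart, with called changes marked (edgeR, adjusted p under 0.05). TTR and CLIC6 lie below 0 in all 6 comparisons, and ENPP2 lies above 0 in the comparisons of GD90 with GD60.

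No difference between the sexes was called for any member. Between males and females 0 of 7 were called at GD45 (0.0919% of all genes), 0 of 7 at GD60 (0.098%) and 0 of 7 at GD90 (0.098%) in edgeR, and DESeq2 also called 0. At an unadjusted p under 0.05 there was 1 member at GD45, AQP1, with 0.84 higher log2 CPM in males (adjusted p = 0.995). Without male GD45 replicate 17 this AQP1 value was 0.52 (adjusted p = 0.916). There were 0 such members at GD60 and 0 at GD90. The change between days was not called as different between the sexes for any member, from GD45 to GD60 (0% of all genes called) or from GD60 to GD90 (0%), with 0 and 1 members at an unadjusted p under 0.05 and 0 in DESeq2. The 1 member was SLC4A5, whose change from GD60 to GD90 was 0.96 higher in males (SE 0.41, edgeR adjusted p = 0.233). Its change in that interval was -0.53 in females (adjusted p = 0.192) and 0.42 in males (adjusted p = 0.270). For KL the change was 1.66 higher in males (SE 0.80, adjusted p = 0.258), with an unadjusted p of 0.0544. With 3 fetuses of a sex on a day, differences of this size could not be told from the spread between animals.

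A further question was whether libraries of the same day were high or low in all 7 genes together, and they were not. Log2 CPM was compared over the 18 libraries after the mean of each gestation day was subtracted, for the 21 pairs of members. The correlation was positive in 11 pairs and negative in 10, with a median Pearson r of 0.06 and a range from -0.86 to 0.83. It had the same sign on all 3 days in 10 pairs. The libraries come in litters and share their sequencing properties, so the points are not fully independent.

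After adjustment over the 21 pairs, 4 passed a permutation test that reshuffled one member within gestation day 100000 times (two-sided). TTR and FOLR1 varied together, with r = 0.83 (adjusted permutation p = 0.00168), rho = 0.73 (adjusted permutation p = 0.0251) and r = 0.86 without the 2 libraries farthest from the median of TTR. On single days their r was 0.91, 0.82 and 0.86. KL and FOLR1 varied in opposite directions, with r = -0.86 (adjusted permutation p = 0.0021), rho = -0.81 (adjusted permutation p = 0.0084) and r = -0.72 without the 2 libraries. The same held for TTR and KL by Pearson r, -0.72 (adjusted permutation p = 0.00784), with rho = -0.64 (adjusted permutation p = 0.0741) and r = -0.79 without 2 libraries. Without male GD45 replicate 17 the r of this pair was -0.66 and it no longer passed (adjusted permutation p = 0.0668). SLC4A5 and ENPP2 varied together with r = 0.60 (adjusted permutation p = 0.0354), rho = 0.56 (adjusted permutation p = 0.152) and r = 0.55 without 2 libraries. This last pair no longer passed without any 1 of 8 libraries (female GD45 replicates 13 and 18, male GD45 replicate 17, female GD60 replicate 3, male GD60 replicates 6 and 16, female GD90 replicate 9 and male GD90 replicate 1), with r from 0.44 to 0.62. With the mean of each litter subtracted in place of the day mean, none of these 4 pairs passed: r was 0.76 for TTR and FOLR1 (adjusted permutation p = 0.0679), -0.80 for KL and FOLR1 (adjusted permutation p = 0.0570), -0.72 for TTR and KL and 0.54 for SLC4A5 and ENPP2, and the 1 pair that did pass was FOLR1 and SLC4A5 (r = -0.88, adjusted permutation p = 0.0131). With the trend on gene length removed, TTR and FOLR1 (r = 0.73) and KL and FOLR1 (r = -0.83) passed and the other two did not. TTR and CLIC6, the 2 members that fell with age, had r = 0.06 within days.

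**Figure D3:**
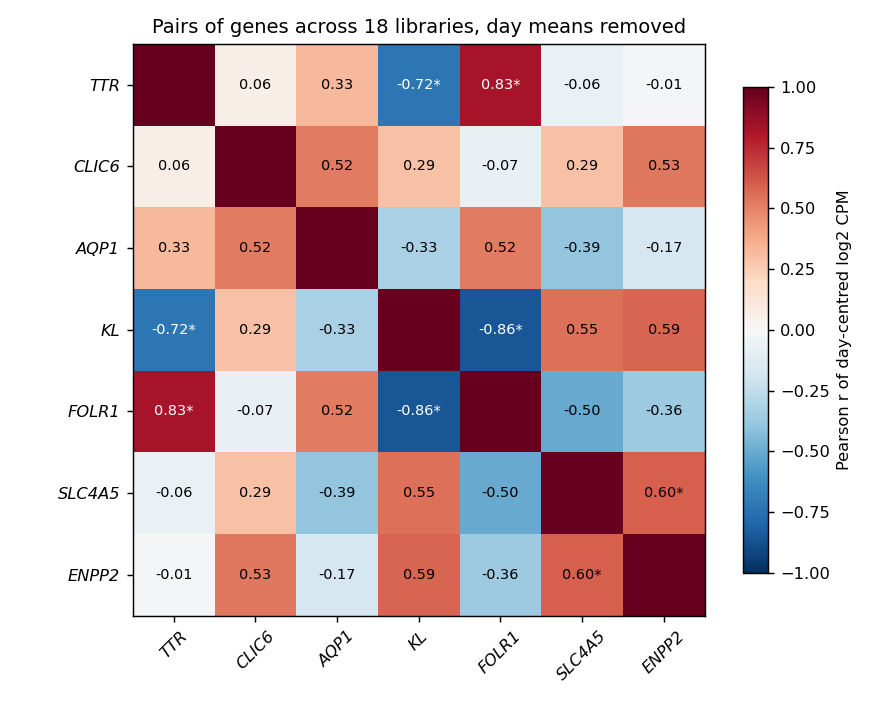
Pearson r of log2 CPM for each pair of the 7 genes over 18 libraries after the mean of each gestation day was subtracted, with an asterisk on the 4 pairs that passed the permutation test after adjustment. Positive and negative correlations are about equally common, with r = 0.83 for TTR and FOLR1 and r = -0.86 for KL and FOLR1.

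The pairs that passed involve genes whose level followed a property of the library, its length slope, by Pearson r. Of these genes, only KL and FOLR1 also followed it by rank. For each library the slope of its log2 CPM on log2 gene length was taken, relative to the mean over libraries, so that a positive slope marks a library in which long genes read high. Over the 18 libraries, with the day mean subtracted, KL followed this slope with r = 0.94 (permutation p = 1e-05, the smallest that the reshufflings can give, adjusted p = 0.00014 over 14 relations), rho = 0.90, and r = 0.90 without the 2 libraries farthest from the median slope. FOLR1 ran against it with r = -0.85 (adjusted permutation p = 0.00077, rho = -0.73, r = -0.71 without 2). TTR did so with r = -0.67 (adjusted permutation p = 0.0138, r = -0.50 without 2) but did not pass by rank (rho = -0.52, adjusted permutation p = 0.0748). ENPP2 (r = 0.61, adjusted permutation p = 0.0234) and SLC4A5 (r = 0.60, adjusted permutation p = 0.0306) also passed by Pearson r but not by rank, with rho = 0.41 for both (adjusted permutation p = 0.174 for both) and r = 0.48 and 0.56 without 2 libraries. CLIC6 (r = 0.37, adjusted permutation p = 0.247) and AQP1 (r = -0.28, adjusted permutation p = 0.403) did not pass by Pearson r, while CLIC6 passed by rank (rho = 0.60, adjusted permutation p = 0.0445). The counted lengths were 3193 bases for KL, 2919 for FOLR1, 2147 for TTR and 3196 for AQP1. They were 4849 for CLIC6, 6500 for SLC4A5 and 7455 for ENPP2. The part of a member's own length in its relation to the slope was not tested.

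A second property of the libraries was read in the same way. The share of exon counts that fell on the 5′ part of genes with many exons ranged from 20.4% to 30.4% between libraries, the lowest being male GD45 replicate 17. It moved with the length slope (r = 0.86 with the day mean subtracted). With this share, r was 0.83 for KL (adjusted permutation p = 0.00035, rho = 0.87, r = 0.79 without 2 libraries), -0.76 for FOLR1 (adjusted permutation p = 0.000373, rho = -0.83, r = -0.73) and -0.60 for TTR (adjusted permutation p = 0.0306, rho = -0.60, r = -0.52). ENPP2 (r = 0.35, adjusted permutation p = 0.195) and SLC4A5 (r = 0.49, adjusted permutation p = 0.0900), which had passed with the length slope, did not pass with this share. Neither did CLIC6 (r = 0.43, adjusted permutation p = 0.0922, rho = 0.56, adjusted permutation p = 0.0577) or AQP1 (r = -0.07, adjusted permutation p = 0.783). On single days the r of CLIC6 with this share was 0.19 at GD45, 0.94 at GD60 and 0.73 at GD90. RNA that is partly broken before selection of poly(A) tails gives fewer reads far from the 3′ end, which is background and not a result of these data; the part of RNA quality in the levels of the members was not tested.

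**Figure D4:**
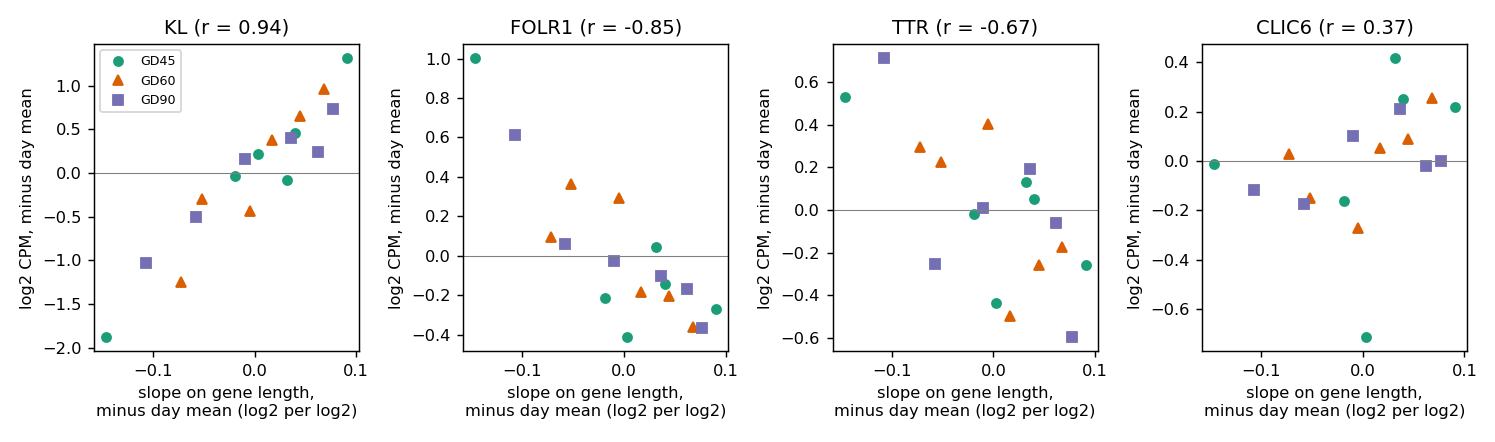
Log2 CPM of KL, FOLR1, TTR and CLIC6 against the length slope of the library (log2 units per doubling of gene length), both with the mean of the gestation day subtracted, with 1 point for each of 18 libraries and a symbol for each day. KL increases with the slope (r = 0.94), and FOLR1 and TTR decrease with it (r = -0.85 and -0.67). CLIC6 is more scattered (r = 0.37, rho = 0.60).

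The first and the last exon of KL were read in the same way. Its exon 1 had 0 to 28 counts a library, with means of 0.66, 1.12 and 1.99 CPM at GD45, GD60 and GD90, and its last exon, exon 5, had 3 to 18 counts with means of 1.12, 1.57 and 1.64 CPM. Exon 1 followed the length slope with r = 0.86 and exon 5 with r = 0.59, over 18 libraries. In male GD45 replicate 17 exon 1 had 0 of 4 KL exon counts (95% Wilson interval 0 to 49.0%), and in male GD90 replicate 1 it had 28 of 73 (38.4%, interval 28.1 to 49.8%). The first exon thus varied more between libraries than the last one, and intervals cover counting error only. The spread was not confined to the first exon. Exon 4 had SDs of 1.20, 1.24 and 1.08 CPM at GD45, GD60 and GD90, against 0.83, 1.02 and 1.30 CPM for exon 1.

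The members differed in how many other genes varied with them within days. Of 12800 genes with a symbol and at least 1 CPM, r exceeded 0.8 in 1619 genes for KL and 1565 for FOLR1, and was under -0.8 in 1695 and 1160. The corresponding counts were 44 and 22 for TTR, 8 and 10 for ENPP2, 8 and 27 for AQP1, 4 and 8 for SLC4A5, and 1 and 1 for CLIC6. KL and FOLR1 shared their variation within a day with a large part of the transcriptome, and CLIC6 shared it with almost no gene at that level. The gene most like CLIC6 was CLDN2, a pore forming claudin of the choroid plexus epithelium (r = 0.82), followed by DSP, a desmosome protein (r = 0.76). These 2 were looked up after the values were seen.

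The genes most like the mean of all 7 members, with the day mean subtracted, were SLC2A12 (r = 0.85), RSPH4A (0.79), PDZD9 (0.78), FGFR2 (0.74), COTL1 (0.74), CLDN2 (0.73), WDR63 (0.71), CPXM2 (0.71), MSH6 (0.71) and ADAR (0.70), over 18 libraries. SLC2A12 is a glucose transporter, and RSPH4A belongs to the radial spoke of motile cilia. Of these 10 genes, 6 were still among the first 10 without male GD45 replicate 17, 6 after the trend on gene length was removed, and 1 by rank correlation. Among the members themselves, CLIC6 was most like the mean of the other 6 (r = 0.66), then ENPP2 (0.44), and the other 5 had r between -0.15 and 0.17.

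Exon counts separated the 2 genes within the FOLR1 model, and the share of the downstream gene was lower at GD90. The downstream gene held 67.4 ± 5.64% of the FOLR1 exon counts at GD45 (59.5 to 74.7%), 59.5 ± 7.27% at GD60 (48.5 to 68.3%) and 35.8 ± 6.36% at GD90 (27.9 to 46.7%; SD, n = 6 libraries). All 6 GD90 libraries were below all 12 others, the closest being female GD90 replicate 7 with 56 of 120 counts (46.7%, 95% Wilson interval 38.0 to 55.6%) and male GD60 replicate 6 with 79 of 163 (48.5%, interval 40.9 to 56.1%). Over litters, the share differed by -31.9 percentage points between GD90 and GD45 and by -23.2 points between GD90 and GD60, each with an exact permutation p of 0.1, the smallest that 3 litters against 3 allow. From GD45 to GD60 the difference was -8.70 points (exact permutation p = 0.3). With the length slope the share had r = -0.01 over 18 libraries, day means subtracted.

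**Figure D5:**
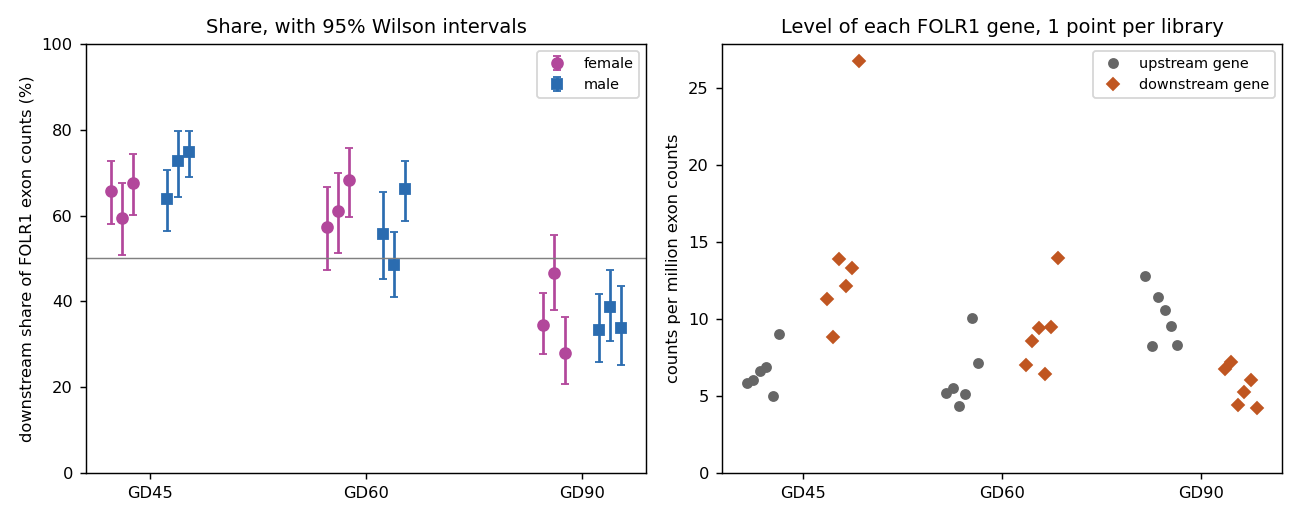
Left, the downstream share of FOLR1 exon counts in percent with its 95% Wilson interval in each female and male library by gestation day, with a line at equal shares; right, the level of the upstream and the downstream gene as CPM of the exon counts in each library. The downstream share is 59.5% to 74.7% at GD45 and 27.9% to 46.7% at GD90.

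The upstream gene had a mean of 6.58 CPM at GD45, 6.24 CPM at GD60 and 10.2 CPM at GD90, and the downstream gene 14.4, 9.14 and 5.66 CPM. Most upstream counts lay on the single exon of 189 bases (944 over all libraries, 85 on the next highest exon). The downstream counts lay mainly on exons with 508, 481 and 405. Levels and shares therefore do not compare the abundance of the 2 genes, only each of them between days. Fitted in edgeR with all other exons, the downstream gene fell from GD45 to GD90 in males (log2 fold change -2.18, SE 0.43, adjusted p = 0.00151; 21.7% of all exons tested were called in that comparison), and without male GD45 replicate 17 the value was -1.37 (adjusted p = 0.0113). The upstream gene rose from GD60 to GD90 in females by 1.28 (SE 0.36, adjusted p = 0.0487; 3.63% of all exons called), and by 1.30 without that library (adjusted p = 0.0076). The other 10 of the 12 values for both genes did not pass, and no comparison had both genes called. In the exons shown above, the upstream copy had 944 counts over all libraries and the downstream copy 481. The next pair of exons, of 136 bases, was identical at 133 bases (97.8%), and the counts were 0 for the upstream copy, which overlaps a longer exon, and 405 for the downstream copy. The exon counts were 24.5% of the FOLR1 gene counts, so that most reads of the gene are not in this comparison.

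A wider list of 47 choroid plexus genes, without the 7, was read beside them. Of these, 45 were in the count table and 44 were tested, and KCNE2 and IGF2 were not matched. From GD45 to GD90, 12 rose and 13 fell in females and 11 rose and 17 fell in males, with a median log2 fold change of -0.22 and -0.38 where all genes had -0.01 in each sex. For these and the lists that follow, 38.8% of all genes were called in females and 47.8% in males. Without male GD45 replicate 17 the counts were 13 and 14 in females and 10 and 15 in males, and without TMM scaling factors they were 9 and 15 in females and 11 and 16 in males. Changes went in both directions within the list. In what follows, the 2 values after a gene are its log2 fold changes from GD45 to GD90 in females and in males, from the same edgeR fit. Among genes of tissue identity 4 of 7 fell and 1 of 7 rose in both sexes, with up to 6 down in males in other fits. Those that fell were OTX2, a homeobox factor of the choroid plexus (-2.25 and -1.83), LMX1A, a factor of the roof plate (-1.60 and -2.002), MSX1, a homeobox factor of the dorsal midline (-1.11 and -1.40), and BMP4, a midline signal (-0.98 and -0.69). RSPO2, an enhancer of WNT signals, rose (0.84 and 1.18).

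Barrier and structural genes had 0 of 5 up, with 2 of 5 down in females and 3 of 5 down in males. KRT8, a keratin of simple epithelia, fell (-2.02 and -1.93), as did CLDN2 (-0.87 and -1.81), and CLDN1, a claudin of tight junctions, fell in males only by the test (-0.59, adjusted p = 0.147 in females and -0.94 in males). Among secreted proteins 3 of 8 rose and 1 of 8 fell in females, and 2 of 8 rose and 3 of 8 fell in males. With the trend on gene length removed 3 rose and 2 fell in males, and with litter sums over both sexes 3 rose and 3 fell. Coagulation factor V, F5, rose (3.65 and 3.90), and so did ceruloplasmin, CP, the copper carrier (3.11 and 3.65). IGFBP2, which binds insulin like growth factors, fell (-1.63 and -2.51).

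Of 12 ion and water transport genes, 4 rose and 2 fell in females and 5 rose and 2 fell in males, or 4 and 1 in males without male GD45 replicate 17, where the calls of SLC12A2 and TRPV4 were lost. KCNJ13, a potassium channel of the epithelium, fell (-1.26 and -1.12). ATP1B1, a sodium pump subunit that neurons use as well, rose (1.88 and 2.16), and SLC4A10, a bicarbonate transporter also of neurons, rose (0.98 and 1.52). Of 12 receptors and transporters, 4 rose and 4 fell in females and 3 rose and 5 fell in males, and without TMM scaling factors 2 rose and 6 fell in females. TMEM72, a membrane protein, fell (-1.55 and -1.78), while the serotonin receptor HTR2C (0.83 and 0.69) and the organic anion carrier SLCO1A2 (0.85 and 1.36) rose. KCNJ13, OTX2 and CLDN2 thus fell as TTR and CLIC6 did, and HTR2C, also a marker of the epithelium, went the other way. So did TRPM3 of the ion and water transport genes (0.72 and 1.45), though its call in females was lost without TMM scaling factors. SLC12A2 was called higher in males (0.69) and was not called in females (0.32, adjusted p = 0.251). The lists thus show no common direction. PRLR, a further marker, was called lower in females (-1.53, adjusted p = 0.0200) and was not called in males (-0.42, adjusted p = 0.451).

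Partners of the members were read in the same way. Of 9 genes of thyroid hormone and retinol handling, the cargo of transthyretin, 5 rose and 2 fell in females and 5 rose and 3 fell in males. RBP4, the retinol carrier, rose (3.64 and 3.15), as did DIO2, which activates thyroid hormone (3.75 and 3.45), the receptor THRB (2.61 and 3.16) and the transporter SLCO1C1 (2.07 and 2.02). DIO3, which inactivates the hormone, fell (-2.34 and -2.82). TTR fell between the same days in which these 4 genes rose.

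Of 5 tested partners of KL, 1 of 5 rose in each sex and 0 of 5 fell, the 1 gene being the calcium channel TRPV5 (2.36 and 2.42). The receptors FGFR1, FGFR2 and FGFR3 and the related coreceptor KLB had values between -0.34 and -0.05 that did not pass, and FGF23 was below the filter. In other fits up to 3 of the 5 were called lower, all of them FGF receptors. Of 5 tested genes of folate transport and use, 0 of 5 were called in females and 1 of 5 in males, the proton coupled folate transporter SLC46A1 (0.05 and -0.59). That call was lost without male GD45 replicate 17 (-0.36, adjusted p = 0.112) and with litter sums (-0.25, adjusted p = 0.160). Of 6 tested genes around lysophosphatidic acid, the product of autotaxin, the phosphatase PLPP3 rose (1.08 and 1.16) and the receptor LPAR2 fell (-1.07 and -1.25). The receptors LPAR1 (0.46 and 0.64) and LPAR4 (-0.28 and 1.19) passed in males. LPAR4 had means of only 0.439 to 0.779 CPM, and its call was lost without male GD45 replicate 17 (0.91, adjusted p = 0.150). It was also lost with litter sums (0.51, adjusted p = 0.210) and in the Wald test of DESeq2 (adjusted p = 0.0653).

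Of 16 tested relatives of AQP1, CLIC6 and SLC4A5, 6 rose and 2 fell in females and 7 rose and 0 fell in males. AQP4, the water channel of astrocytes, rose (3.86 and 4.29), as did AQP3, which also carries glycerol (3.39 and 3.16), and SLC4A4, a bicarbonate cotransporter of astrocytes (1.58 and 2.12). AQP1 and SLC4A5 were not called between the same days, and CLIC6 fell.

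Markers of other cells that a brain sample can hold were read beside the members as well. The summed level of the 8 measured ependymal genes, which mark the ciliated lining next to the choroid plexus, was 44.4 to 64.2 CPM at GD45, 41.9 to 61.1 CPM at GD60 and 40.9 to 56.7 CPM at GD90. Within days this sum had r = 0.73 with CLIC6, 0.56 with AQP1 and between -0.06 and 0.19 with the other 5, over 18 libraries that share depth and litter. Erythroid genes gave 268 to 674 CPM at GD45, 163 to 309 CPM at GD60 and 96.6 to 175 CPM at GD90, with 0 of 7 up and 3 and 5 of 7 down from GD45 to GD90 in females and males, and 4 and 3 down without male GD45 replicate 17. Within days their sum had r = 0.61 with AQP1, which red cells also carry, 0.58 with FOLR1, 0.31 with TTR, -0.20 with CLIC6, -0.60 with ENPP2, -0.63 with KL and -0.69 with SLC4A5. Their part in the levels of the members was not tested.

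Meningeal genes summed to 766 to 1672 CPM at GD45 and 1200 to 1611 CPM at GD90, most of it collagen. Of the 8 genes, 5 fell and 1 rose from GD45 to GD90 in females, and 4 fell and 2 rose in males, between the same days in which TTR and CLIC6 fell. DCN, a matrix proteoglycan (-1.62 and -1.39), and the meningeal factor FOXD1 (-0.97 and -0.90) were among those that fell, and PDGFRA, which oligodendrocyte precursors also carry (1.75 and 2.15), rose. Their sum had r = -0.79 with FOLR1 and 0.61 with KL within days, and their part in the levels of the members was not tested. Endothelial genes summed to 351 to 444 CPM at GD45 and 415 to 526 CPM at GD90. Within days the endothelial sum had r = -0.65 with ENPP2, -0.63 with KL, 0.61 with FOLR1 and 0.51 with TTR. It had -0.52 with CLIC6, -0.33 with SLC4A5 and 0.14 with AQP1. Neuronal genes summed to 6381 to 7629 CPM at GD45 and 8005 to 9094 CPM at GD90, and macrophage genes to 54.8 to 77.5 CPM and 118 to 144 CPM, with no overlap between those 2 days for either list. The neuronal sum had r = 0.60 with TTR, 0.49 with FOLR1, -0.53 with KL and -0.51 with CLIC6 within days. With AQP1, SLC4A5 and ENPP2 it had -0.26, -0.13 and -0.07. The macrophage sum had r from -0.49 (AQP1) to 0.27 (SLC4A5). The part of these cells in the levels of the members was not tested.

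The 8 markers of retinal pigment epithelium, which also makes TTR, summed to 63.2 to 137 CPM at GD45 and 137 to 159 CPM at GD90, of which RLBP1, also a gene of glia, made up 91.6 and 134 CPM on average. RPE65, TYR, TYRP1 and PMEL were under 1 CPM on average. The sum had r = -0.86 with FOLR1, 0.80 with KL and -0.63 with TTR within days. The 8 liver markers summed to 112 to 291 CPM at GD45 and 125 to 246 CPM at GD90, most of it APOA1 (171 and 154 CPM on average). ALB had means of 5.21 and 8.48 CPM and was called higher at GD90 in males (0.96, adjusted p = 0.0193), a call lost without male GD45 replicate 17 (0.61, adjusted p = 0.0646). AFP, FGA, FGB, SERPINA1 and AHSG were under 1 CPM on average over all libraries, and APOA2 was listed at 0 counts in all of them. The liver sum had r = -0.92 with KL, 0.85 with FOLR1 and 0.69 with TTR within days, and the part of these lists in the levels of the members was not tested. Of the choroid plexus genes fixed as markers, all 7 members and KCNJ13, OTX2, HTR2C and PRLR were measured on every day.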

How the data were processed

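Per the labels and the study's methods, the authors enriched poly(A) RNA with oligo(dT), sequenced paired reads, checked and trimmed them with FastQC and Trimmomatic, used HISAT2 for alignment to Sscrofa11.1, and obtained counts on Ensembl genes from featureCounts. The strand setting and the handling of reads that map to several places are not given in the sources used here. The deposited values are raw counts per gene and per exon, without normalization. The 22 count columns were mapped to the 18 libraries by their names, and repeat runs of a library were summed. Libraries held 15118843 to 19729783 gene counts, and 6988796 to 9214794 exon counts.

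CPM are counts scaled by the library's total of gene counts. Genes passing filterByExpr (16325) were fitted with edgeR 4.0.16 in R 4.3.3 (TMM, quasi-likelihood F test, 6 groups of sex and day, Benjamini-Hochberg over all genes, threshold 0.05). The members are 7 of these. Fetuses of 1 sex and day come from separate litters, so p-values measure the spread between fetuses. Correlations used log2 CPM (prior count 2) with each day's mean subtracted and reshuffling within days. Genes of the lists were named as up to 4 of the called genes with the largest changes; others, such as HTR2C, CLDN1 and the FGF receptors, were named after their values were seen. Likeness to the members was ranked among genes of at least 1 CPM. The members and lists were chosen with earlier results of these data known, and 1 gene of a marker list is not reported here. FOLR1 was split at the 2 RefSeq genes using exon counts. The exon table holds 3.12% of the TTR counts and 0.324% of the AQP1 counts, so it was not used for those genes' tests. Each test across genes was first tested on simulated data. Alternatives were the likelihood ratio test, DESeq2 1.42.0, other scalings, only the 6 libraries compared, litter sums and each library left out. Removing the trend on gene length was added after the data were seen.

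Littermates of a day were inferred from litter size and are the pairs of the replicate block, in which the litter entered the comparison of males with females.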

Additional observations from a re-analysis of the deposited data

Results flagged for a closer look

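The 7 genes and the downstream share of FOLR1 on each day gave 24 groups of 6 libraries, in which the highest and the lowest library were compared with their neighbours. The gap relative to the range of the group passed the 95% critical value of Dixon in 4 groups, where chance flags about 1 in 20 groups. FOLR1 in male GD45 replicate 17 was 65.7 CPM, and the next highest library of GD45 had 42.6 CPM. FOLR1 in female GD90 replicate 2 was 45.2 CPM, with 31.8 CPM in the next. AQP1 in male GD90 replicate 1 was 7.05 CPM, with 5.09 CPM in the next. SLC4A5 in female GD60 replicate 3 was 4.47 CPM, with 2.89 CPM in the next.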

How the results depend on the processing

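Counts of members called moved under some settings. From GD45 to GD60 in females, 1 was called with the likelihood ratio test, with DESeq2 and with the trend on gene length removed. In males 0 were called when only the 6 libraries compared were fitted. From GD60 to GD90 in females, 1 was called with the likelihood ratio test, DESeq2 and the length trend removed. The fit of only the 6 libraries gave 2 there, and in males 1 was called with the length trend removed. From GD45 to GD90 in females, 3 were called with the length trend removed. In males DESeq2 called 3 from GD60 to GD90 and 4 from GD45 to GD90. Litter sums hold both sexes in 1 test and gave 1, 2 and 4 for the intervals in this order. Of the pairs, 2 passed by rank, 1 with the litter mean subtracted and 2 with the length trend removed. Of the 10 genes most like the members, 1 was shared by rank and 6 with the length trend removed. The SLC4A5 log2 ratio of GD90 to GD45 was 0.34 in the exon table, against -0.12. The causes were not tested.

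With each library left out, members called were 0 to 1 and 0 to 2 from GD45 to GD60 (females, males), 0 to 1 and 1 to 3 from GD60 to GD90, and 1 to 3 and 2 to 5 from GD45 to GD90, and 0 between the sexes and in the interactions. Pairs that passed ranged from 2 to 5. Of the 10 genes most like the members, 6 were shared without male GD45 replicate 17, the only library left out for that list. With the litter as a replicate block, 0 members were called between the sexes at each day, as without it. Of 98 folds and pairs, none that was called reversed. Without TMM factors the median of all genes moved to -0.12 (females, GD45 to GD90). KL, with as few as 4 counts, and SLC4A5 are limited by depth.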
